A study of Mus musculus with 6 samples.

Results

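Arrdc3, Paqr9, Keg1, Rgn and Lars2 are 5 mouse genes with no role in the classic synthesis, storage or transport of lipids, and they were grouped because their messenger RNA was low in livers lacking the cholesterol exporter ABCA1 in hepatocytes. They are 5 of the 29981 rows of the expression table, each a row naming a single gene. The values that chose them were those of the very comparison described here, under several ways of scaling the libraries, so their differences between the genotypes are given as a description without a test.

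The samples were livers of C57BL/6 mice from which food was withheld during the day before collection. The 3 HSKO livers carried a deletion of Abca1 by Albumin-Cre, a driver active in hepatocytes. Whether other liver cells kept the gene was not measured here. The 3 WT livers were labelled wildtype and described as floxed controls. The labels state neither sex nor age and do not say that each liver came from a separate animal, so a p-value here reflects only how far these 6 samples scatter. The level of a gene here is its number of reads divided by a size factor of the library, and the library totals were 631020 to 702013 reads in HSKO against 838637 to 933319 in WT. A single row, BC071253, held 46.2% to 57.8% of the reads in HSKO and 43.1% to 52.9% in WT. The deleted gene itself had 2, 1 and 2 reads in the HSKO libraries against 20, 36 and 34 in the WT libraries, or a level of 2.35 ± 0.783 in HSKO against 19.4 ± 4.22 in WT (SD, n = 3 each).

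The 5 genes act at different places in the cell. Arrdc3 encodes an alpha-arrestin, an adaptor that brings ubiquitin ligases of the NEDD4 family to membrane receptors and so steers their traffic and breakdown. Paqr9 encodes a membrane protein of the family that includes the adiponectin receptors, and in mouse liver it has been described as a guard of the fatty acid sensor PPAR alpha against degradation. Rgn encodes regucalcin, a calcium-binding lactonase that performs the penultimate step of vitamin C synthesis in mice. Keg1 belongs to the family of glycine N-acyltransferases, which couple acyl groups to glycine in mitochondria. Lars2 charges the mitochondrial tRNA for leucine, a step without which proteins encoded by the mitochondrial genome cannot be made.

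Keg1 lies near its closest relatives on chromosome 19, which bears on how its reads can be told from theirs. In the mm10 build with the GENCODE M21 annotation Keg1 spans chr19:12695786-12719902 on the plus strand, Glyat chr19:12633308-12653911 and the predicted gene Gm4952 chr19:12599974-12628251. The coding sequence of Keg1 was 73.1% identical to that of Gm4952 and 72.9% identical to that of Glyat, and the longest runs shared by the transcripts were 38 and 35 bases. The same 90-base coding stretch of the 3 GENCODE M21 transcripts is printed to show how near they come, with capitals marking bases that differ from Keg1, 5 in Gm4952 and 17 in Glyat. The stretch runs from coding base 64 to 153 in Keg1 and Gm4952 and from 67 to 156 in Glyat.
Keg1: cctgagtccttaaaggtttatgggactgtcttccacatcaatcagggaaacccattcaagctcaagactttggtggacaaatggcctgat
Gm4952: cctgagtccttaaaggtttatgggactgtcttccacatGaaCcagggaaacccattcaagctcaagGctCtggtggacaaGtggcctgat
Glyat: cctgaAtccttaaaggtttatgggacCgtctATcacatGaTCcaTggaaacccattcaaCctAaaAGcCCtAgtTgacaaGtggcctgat

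The 250 bases before the transcription start were compared for the 3 genes with an entry in the RefSeq promoter table (GRCm38.p6), because genes that share low values may or may not share a promoter type. Capitals mark CG dinucleotides, and the plus strand is shown, which is the coding strand of all 3. The Arrdc3 window, chr13:80883134-80883383, held 33 CG dinucleotides at 76.0% G or C. The Lars2 window, chr9:123366677-123366926, held 15 at 59.2% G or C, and the Keg1 window, chr19:12695540-12695789, held 1 at 36.0% G or C. Over 27025 promoter windows of this length the median was 6 CG dinucleotides and 52.0% G or C. Thus 96.6% of promoters had as few CG dinucleotides as Arrdc3 or fewer, 74.4% as few as Lars2 and 19.4% as few as Keg1.
Arrdc3: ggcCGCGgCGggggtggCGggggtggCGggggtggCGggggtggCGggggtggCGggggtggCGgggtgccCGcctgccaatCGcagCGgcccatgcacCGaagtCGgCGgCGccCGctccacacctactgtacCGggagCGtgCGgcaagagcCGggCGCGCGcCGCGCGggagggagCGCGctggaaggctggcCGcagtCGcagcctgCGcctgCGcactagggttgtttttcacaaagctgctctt
Keg1: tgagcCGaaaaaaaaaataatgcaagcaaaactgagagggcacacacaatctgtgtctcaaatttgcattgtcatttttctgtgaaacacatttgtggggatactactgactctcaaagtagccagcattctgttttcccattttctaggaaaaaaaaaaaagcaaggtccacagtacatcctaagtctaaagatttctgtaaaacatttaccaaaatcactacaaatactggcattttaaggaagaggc
Lars2: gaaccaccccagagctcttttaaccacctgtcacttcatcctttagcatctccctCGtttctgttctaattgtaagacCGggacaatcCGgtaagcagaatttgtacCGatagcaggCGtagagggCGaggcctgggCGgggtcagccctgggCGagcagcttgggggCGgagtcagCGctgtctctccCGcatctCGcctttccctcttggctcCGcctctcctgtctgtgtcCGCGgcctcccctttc

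The 3 windows therefore ranged from CG-rich to CG-poor. Of 5 short motifs searched on both strands, with overlaps allowed, CCAAT was in the Arrdc3 window and in neither of the other two, and it was in 34.5% of all promoters. None of the 3 windows held TATAAA (in 13.0% of all promoters), the forkhead core TGTTTAC (3.09%), the E-box CACGTG (6.05%) or the nuclear receptor motif AGGTCA (13.8%).

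Arrdc3 (chr13:80883384-80896042, plus strand, 8 exons) was the member with the lowest relative level in HSKO. It had 3, 1 and 1 reads in the HSKO libraries against 9, 43 and 37 in the WT libraries. As a level this was 4.38, 1.45 and 1.33 in HSKO and 6.87, 28.3 and 20.9 in WT. The genotypes did not overlap, but WT replicate 1 stood far below the other WT libraries and close to HSKO replicate 1. The exact Poisson intervals of those neighbours overlapped, 0.904 to 12.8 in HSKO replicate 1 and 3.14 to 13.0 in WT replicate 1, counting error only. The mean was 2.39 ± 1.73 in HSKO and 18.7 ± 10.9 in WT (SD, n = 3 each). The pooled ratio was 0.122 with a counting interval of 0.0386 to 0.295. For each gene it divides the summed reads over summed size factors in HSKO by the same in WT, so it differs slightly from the ratio of means. The log2 difference, taken on log2(level + 1) like all others here, was -2.45. The SD of the WT libraries was 58.3% of their mean, the largest share of the 5 genes.

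Paqr9 (chr9:95559657-95568023, plus strand), a gene of 1 exon, gave the tightest WT values. Its level was 2.92, 5.82 and 5.32 in HSKO from 2, 4 and 4 reads, against 21.4, 19.7 and 18.05 in WT from 28, 30 and 32 reads. All HSKO libraries lay well below all WT libraries, and the SD of the WT libraries was 8.42% of their mean. The mean was 4.69 ± 1.55 in HSKO and 19.7 ± 1.66 in WT (SD, n = 3 each), with a pooled ratio of 0.241 (counting interval 0.112 to 0.464) and a log2 difference of -1.90.

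Keg1 (6 exons) had a level close to that of Paqr9 in each library. Its level was 2.92, 7.27 and 6.65 in HSKO from 2, 5 and 5 reads, against 22.9, 25.01 and 20.9 in WT from 30, 38 and 37 reads. The genotypes were again separated by a wide gap. The mean was 5.61 ± 2.35 in HSKO and 22.9 ± 2.07 in WT (SD, n = 3 each), with a pooled ratio of 0.248 (counting interval 0.124 to 0.451) and a log2 difference of -1.92. The ratio of Keg1 to Paqr9 within a library ran from 1.00 to 1.25 in HSKO and from 1.07 to 1.27 in WT. The HSKO ratios rest on 2, 5 and 5 reads of Keg1 and 2, 4 and 4 of Paqr9, too few to show whether the proportion was kept.

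Rgn (chrX:20549787-20562089, plus strand, 7 exons) was the most abundant of the 5 in nearly every library. Its level was 21.9, 36.4 and 34.6 in HSKO from 15, 25 and 26 reads, against 67.2, 96.1 and 85.2 in WT from 88, 146 and 151 reads. The highest HSKO library stayed far below the lowest WT library. The mean was 31.0 ± 7.87 in HSKO and 82.8 ± 14.6 in WT (SD, n = 3 each), with a pooled ratio of 0.372 (counting interval 0.282 to 0.483) and a log2 difference of -1.41.

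Lars2 (chr9:123366927-123462666, plus strand, 21 exons) stood close to Rgn. Its level was 20.5, 36.4 and 27.9 in HSKO from 14, 25 and 21 reads, against 58.8, 65.1 and 94.2 in WT from 77, 99 and 167 reads. WT replicate 3 was above the other WT libraries, and the genotypes did not overlap. The mean was 28.2 ± 7.95 in HSKO and 72.7 ± 18.9 in WT (SD, n = 3 each), with a pooled ratio of 0.379 (counting interval 0.283 to 0.5) and a log2 difference of -1.34. The ratio of Rgn to Lars2 within a library was 1.00 to 1.24 in HSKO and 0.904 to 1.47 in WT. In bulk liver, fewer cells expressing a gene and less RNA of it per cell cannot be told apart.

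**Figure D1:**
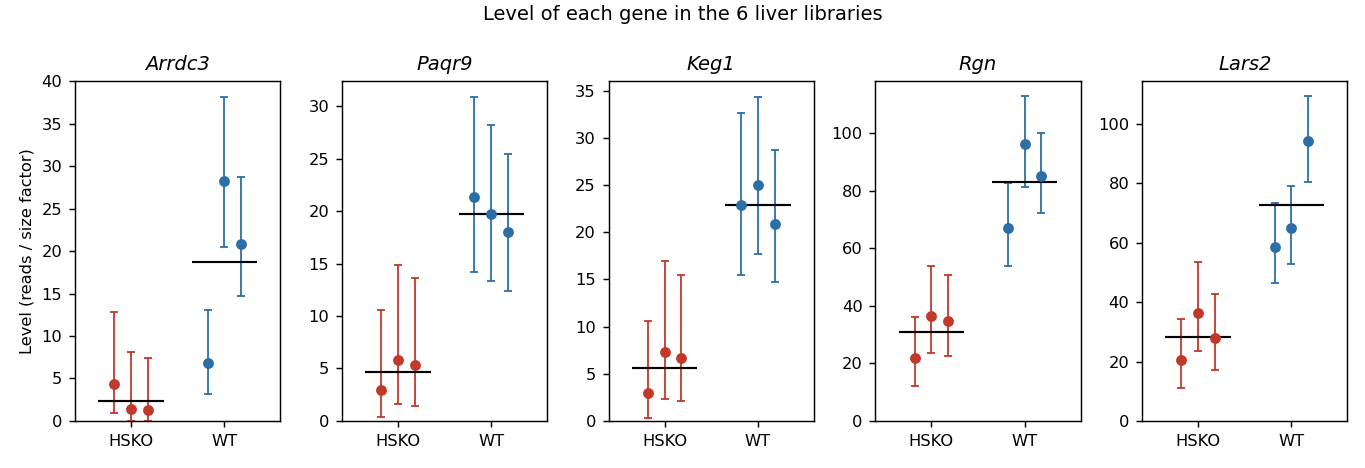
Level of each gene in the 3 HSKO and 3 WT liver libraries. The level is reads divided by the size factor of the library, on linear axes from 0. Each point is a library with its exact Poisson interval, which covers counting error only, and each horizontal line is a group mean. Every HSKO library lies below every WT library in all 5 panels, and the narrowest gap is in Arrdc3, where HSKO replicate 1 is at 4.38 and WT replicate 1 at 6.87.

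Levels of different genes can be compared per length of transcript. Per kilobase the mean level was 19.3 in HSKO and 51.5 in WT for Rgn, 7.25 in HSKO and 18.7 in WT for Lars2, and 3.35 in HSKO and 13.7 in WT for Keg1. Arrdc3 and Paqr9 were the scarcest messages on this scale, at 0.583 in HSKO and 4.55 in WT for Arrdc3 and 0.560 in HSKO and 2.36 in WT for Paqr9. Rgn and Lars2 therefore headed the order per kilobase in HSKO and Rgn, Lars2 and Keg1 in WT, and the last 2 places in HSKO rest on 5 and 10 reads in all.

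Arrdc3, Paqr9 and Keg1 reached the minimum mean level of 10 over all 6 libraries, required of the 2750 rows fitted with limma, only through their WT libraries. In that fit 320 rows, or 11.6%, were lower in HSKO at an adjusted p under 0.05, and in 552 rows, or 20.1%, every HSKO library lay below every WT library. Calls in either direction came to 1103 rows or 40.1%, of which 783 or 28.5% were higher, and 47.7% of rows had a log2 difference below 0. All 5 genes were lower by both measures, and since they were picked for low HSKO values this is a description of the choice. Counted from the lowest log2 difference of the fitted rows, Arrdc3 was at place 3, Keg1 at 7, Paqr9 at 8, Rgn at 36 and Lars2 at 51.

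The scaling of the libraries set the size of the difference but not its sign. Over 7 scalings the log2 difference ran from -3.18 to -2.05 for Arrdc3, from -2.50 to -1.47 for Paqr9, from -2.53 to -1.49 for Keg1, from -2.07 to -0.93 for Rgn and from -2.0 to -0.86 for Lars2. The median of all fitted rows moved with the scaling too, lying at 0.07 with the deposited scaling, at 0.54 when libraries were set equal in hepatocyte marker genes and at -0.57 when they were set equal in total reads. With equal hepatocyte markers, the scaling that brought each gene nearest to 0, the highest HSKO and lowest WT libraries came to 5.61 (HSKO) and 6.00 (WT) for Arrdc3, 46.4 (HSKO) and 58.7 (WT) for Rgn and 46.4 (HSKO) and 51.4 (WT) for Lars2. That scaling called 42 of the 2750 fitted rows lower, all of them called lower in the other 6 scalings as well. The 5 genes were among the 42. This, like their kept sign, restates how they were picked, for low HSKO values under several scalings. Of the 5 genes Lars2, at -0.86 in that scaling, had the largest adjusted p over the 7 scalings (0.0285, limma or edgeR). It was not at the edge of the 42 rows, whose largest such value was 0.0494. Gpd1, at -0.80 and called lower in 6 scalings, lay just outside the limit (0.0502).

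**Figure D2:**
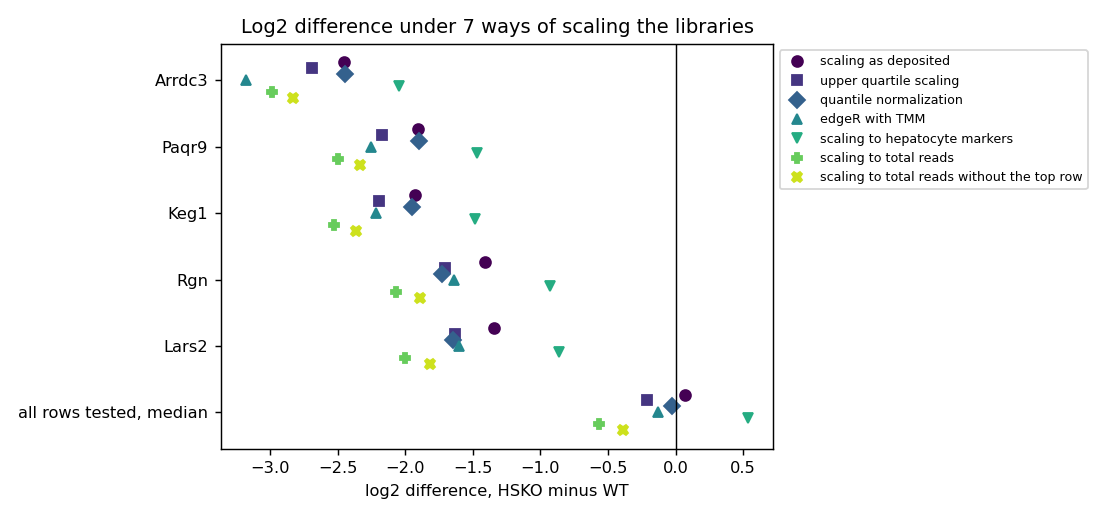
Log2 difference, HSKO minus WT, of the 5 genes and of the median of all fitted rows under each of 7 ways of scaling the libraries. All 5 genes stay below 0 in each scaling, between -3.18 and -0.86, while the median of all rows moves from -0.57 with total reads to 0.54 with hepatocyte markers.

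Hepatocyte markers moved with genotype beside all of these genes. Of 19 hepatocyte marker rows 7 fell and 0 rose, their summed level was 11281 to 17096 in HSKO against 18347 to 21880 in WT, and they took 1.22% to 1.99% of reads in HSKO against 2.70% to 4.63% in WT. Among markers of hepatocytes near the central vein 5 of 6 fitted rows fell, including the glutamine synthetase gene Glul (log2 difference -0.87, limma adjusted p = 0.0138), and the list summed to 753 to 1127 in HSKO against 1663 to 1725 in WT. Markers of hepatocytes near the portal vein overlapped, at 317 to 436 in HSKO and 333 to 477 in WT, with 1 of 6 higher and 0 lower. Their part in the low levels of the 5 genes was not tested. The scaling to hepatocyte markers above is no such test, because the genes were picked for low HSKO values under several scalings.

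Markers of the other liver cells were scarce. The stellate cell list summed to 10.2 to 20.4 in HSKO against 30.5 to 36.2 in WT, with decorin (Dcn) its single fitted gene and lower. Endothelial markers summed to 8.72 to 24.8 in HSKO against 28.2 to 29.6 in WT with none of them fitted. Kupffer cell markers summed to 23.4 to 58.5 in HSKO against 35.1 to 80.9 in WT, with 1 of 2 fitted genes lower. Those of cholangiocytes (5.32 to 17.5 in HSKO, 10.7 to 15.8 in WT), lymphocytes (0 to 3.99 in HSKO, 1.13 to 3.29 in WT) and red cells (14.5 to 21.3 in HSKO, 14.1 to 25.01 in WT) overlapped, and no gene of theirs was called.

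Around these genes, 40 relatives and pathway partners from 11 lists were fitted. Of them 11 (27.5%) fell and 5 (12.5%) rose, beside 11.6% and 28.5% of all fitted rows, and their median log2 difference was -0.18 beside 0.07 for all rows. With libraries set equal in hepatocyte markers, the falls of 2 genes remained, those of Adipor2 and Akr1a1. With libraries set equal in total reads none of the 5 rises remained, and without a filter on low levels the calls of Paqr3, Insr, Pck1, Gulo and Nars were lost (adjusted p between 0.0685 and 0.119). Counts were 7 falls and 3 rises without WT replicate 2, 6 falls without WT replicate 3, and 3 rises without HSKO replicate 2, of which Wwp1 was a call gained there.

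**Figure D3:**
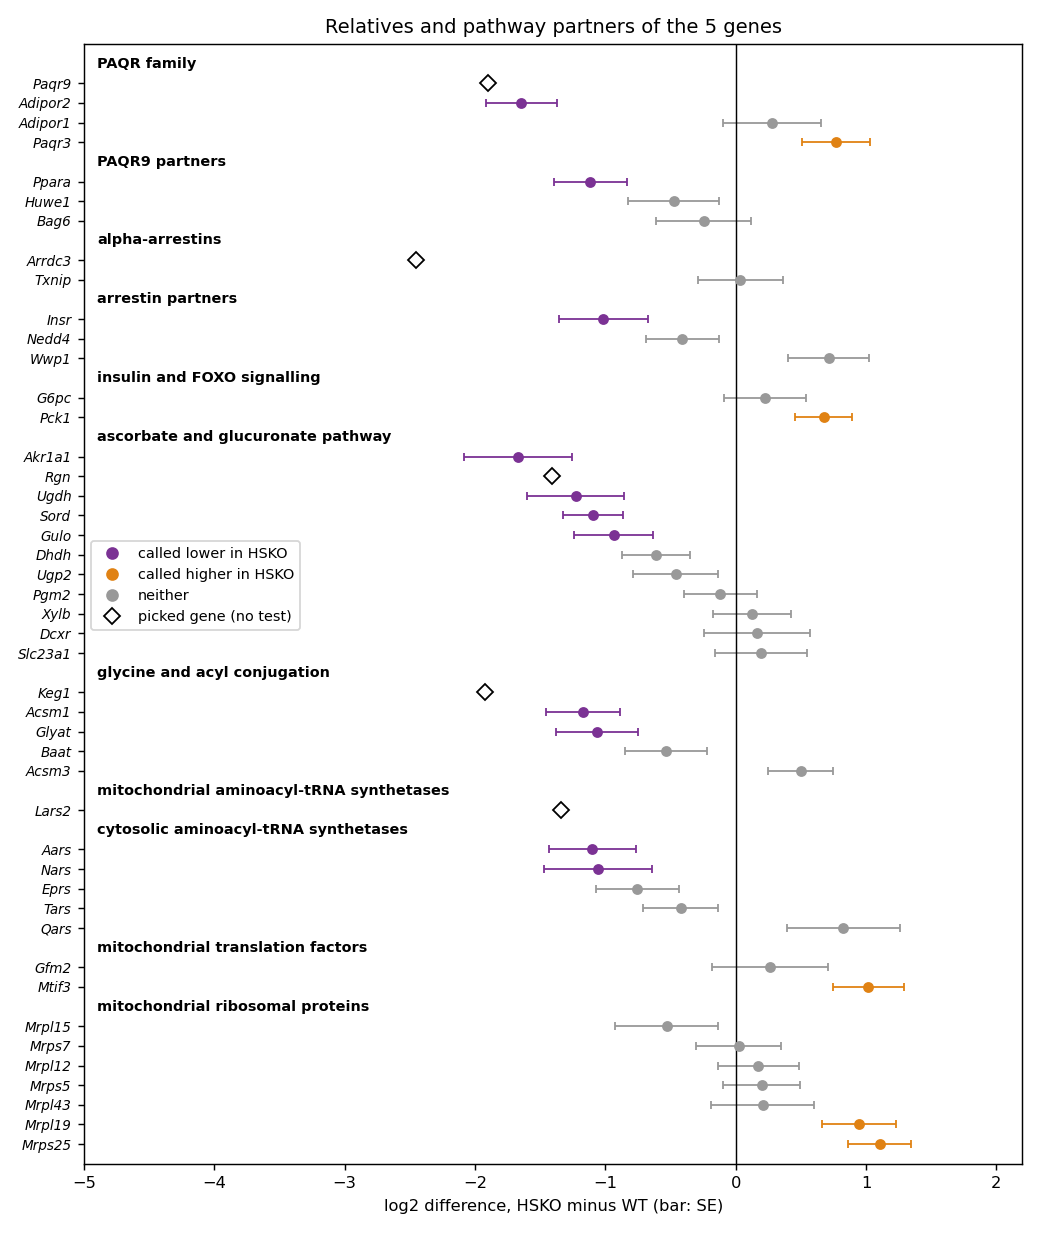
Log2 difference, HSKO minus WT, with its SE for each fitted relative or partner, grouped by list, with those that passed the test marked by direction. Adipor2 and Akr1a1 are the furthest left at -1.65 and -1.67, and Mrps25 and Mtif3 the furthest right at 1.10 and 1.02.

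In the PAQR family the adiponectin receptors parted. Adipor2, the liver's main adiponectin receptor, had a level of 35.1, 20.4 and 21.3 in HSKO against 90.1, 74.4 and 75.6 in WT. These values did not overlap, and the log2 difference was -1.65 ± 0.27 (SE, limma adjusted p = 0.000549). Adipor1, its partner receptor, had 14.2 ± 5.92 in HSKO and 10.9 ± 0.866 in WT and did not pass (adjusted p = 0.565). Paqr3, a membrane protein of the Golgi, rose to 61.6 ± 11.9 in HSKO against 35.5 ± 4.85 in WT (SD, n = 3 each), with a log2 difference of 0.77 (adjusted p = 0.0246). The Paqr3 call was lost without HSKO replicate 1, HSKO replicate 2 or WT replicate 3 (adjusted p = 0.0761, 0.0893 and 0.0808) and with edgeR or DESeq2 (0.0709 and 0.0955).

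So 1 of 3 fitted relatives of Paqr9 rose, 1 fell and 1 did neither, with a median of 0.28 that became -0.34 with total reads. The other 7 had means under the minimum, the highest at 9.75 over all 6 libraries, and 3 of them had no read. Paqr9 made up 2.02%, 4.94% and 5.41% of the summed level of the family in HSKO against 12.0%, 11.5% and 11.5% in WT. Every HSKO share lay below every WT share, which follows in part from picking Paqr9 for low HSKO values. Its HSKO shares rest on 2, 4 and 4 reads. Its coding sequence was 58.3% to 62.5% identical to those of 8 relatives.

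Of the 3 reported partners of the PAQR9 protein, Ppara fell and the others did not pass. Ppara, the nuclear receptor that turns on fatty acid oxidation in fasting, had 17.5, 14.5 and 26.6 in HSKO against 39.7, 42.1 and 45.1 in WT, without overlap (log2 difference -1.12 ± 0.28 SE, limma adjusted p = 0.00429). Huwe1, a ubiquitin ligase, had 15.3 ± 6.49 in HSKO and 20.5 ± 4.38 in WT (adjusted p = 0.281). Bag6, a chaperone for misplaced membrane proteins, had 10.4 ± 2.13 in HSKO and 12.4 ± 1.28 in WT (SD, n = 3 each; adjusted p = 0.604).

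Among the alpha-arrestins, Arrdc3 and Txnip gave nearly all of the family's reads. Txnip, which binds thioredoxin and curbs glucose uptake, had 20.4 ± 9.09 in HSKO and 19.0 ± 3.90 in WT (SD, n = 3 each), a log2 difference of 0.04 that did not pass (limma adjusted p = 0.938). The 4 further relatives stayed under the minimum mean, the highest at 1.54 and Arrdc5 with no read. Arrdc3 made up 17.6%, 10% and 3.85% of the family's summed level in HSKO against 30%, 51.8% and 46.8% in WT, again without overlap. This too follows in part from picking Arrdc3 for low HSKO values, and its HSKO shares rest on 3, 1 and 1 reads.

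Of 11 arrestin partners, which are ubiquitin ligases, receptors and beta-arrestins, 3 were fitted and 1 fell. Insr, the insulin receptor, had 10.2, 11.6 and 6.65 in HSKO against 17.6, 24.3 and 18.05 in WT, without overlap (log2 difference -1.02 ± 0.34 SE, limma adjusted p = 0.0238). That call was lost without HSKO replicate 3, WT replicate 2 or WT replicate 3 (adjusted p = 0.0656, 0.133 and 0.0612). The 2 fitted ubiquitin ligases did not pass, with Nedd4 at 25.6 ± 6.15 in HSKO and 34.2 ± 7.501 in WT (adjusted p = 0.252) and Wwp1 at 62.5 ± 31.4 in HSKO and 35.5 ± 8.27 in WT (SD, n = 3 each; adjusted p = 0.0725).

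The Wwp1 level was 98.4 in HSKO replicate 3, apart from the other HSKO libraries at 48.2 and 40.7, and its log2 difference of 0.71 became 0.34 without that library. Wwp1 passed as higher without HSKO replicate 2 or WT replicate 1 (limma adjusted p = 0.0392 and 0.0455) and with equal hepatocyte markers (0.00446). In the list of insulin and FOXO signalling, 1 of 2 fitted genes rose. Pck1, the enzyme that commits carbon to gluconeogenesis, had 551, 603 and 598 in HSKO against 333, 369 and 396 in WT, a log2 difference of 0.67 (limma adjusted p = 0.0201). The difference vanished with total reads, where it was -0.00027, and the call was lost without HSKO replicate 2 or WT replicate 2 (adjusted p = 0.0866 and 0.0742). G6pc, which releases free glucose, had 21.5 ± 3.87 in HSKO and 18.9 ± 6.38 in WT (SD, n = 3 each; adjusted p = 0.588).

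Rgn shares the route from glucose to vitamin C with genes of which several were low. Of 10 fitted genes of ascorbate and glucuronate metabolism besides Rgn, 4 fell and 0 rose, with a median log2 difference of -0.54 that became -0.06 with equal hepatocyte markers. The falls included the steps on either side of regucalcin. Akr1a1, which reduces glucuronate to gulonate just before it, had 11.7, 2.91 and 13.3 in HSKO against 22.1, 29.0 and 32.1 in WT (log2 difference -1.67 ± 0.41 SE, limma adjusted p = 0.00382). The Akr1a1 libraries did not overlap, and the call held in all alternatives that could fit it.

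Gulo, the oxidase of the last step and a gene that humans have lost, had 27.8, 21.8 and 12.0 in HSKO against 44.3, 36.9 and 33.8 in WT. The libraries did not overlap (log2 difference -0.94 ± 0.31 SE, limma adjusted p = 0.0203), but the call was lost without HSKO replicate 3, WT replicate 1 or WT replicate 2 (adjusted p = 0.102, 0.0609 and 0.0510). Ugdh, which makes UDP-glucuronate further up the route, had 8.54 ± 4.02 in HSKO and 20.5 ± 4.72 in WT (SD, n = 3 each; log2 difference -1.23, adjusted p = 0.0136). Its call was lost without WT replicate 2 or WT replicate 3 (adjusted p = 0.0814 and 0.0672). Sord, the sorbitol dehydrogenase, had 71.6, 62.5 and 75.8 in HSKO against 145, 155 and 149 in WT, a narrow spread in both genotypes (log2 difference -1.09 ± 0.23 SE, adjusted p = 0.00145).

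The 6 genes of the list that did not pass included the earliest steps. Ugp2, which makes UDP-glucose, had 35.2 ± 9.35 in HSKO and 51.3 ± 22.2 in WT (limma adjusted p = 0.265). Without WT replicate 1 the log2 difference of Ugp2 moved from -0.46 to -0.86 and passed (adjusted p = 0.0258), as it did with edgeR (0.0422). Pgm2, a phosphoglucomutase, had 27.1 ± 7.61 in HSKO and 28.8 ± 1.77 in WT (adjusted p = 0.755). Dhdh, a dihydrodiol dehydrogenase, had 30.6 ± 5.75 in HSKO and 46.9 ± 3.02 in WT (adjusted p = 0.0653). Xylb, the xylulokinase, had 27.1 ± 6.67 in HSKO and 24.99 ± 7.15 in WT (SD, n = 3 each; adjusted p = 0.754). Rgn made up 7.08%, 13.0% and 12.0% of the summed level of the list in HSKO against 15.04%, 17.9% and 16.0% in WT. Its share was lower in each HSKO library than in any WT library, which follows in part from picking Rgn for low HSKO values.

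Keg1 belongs to the enzymes that couple acids to glycine or to coenzyme A before coupling. Of 4 fitted genes besides it 2 fell, 0 rose and 2 did neither, with a median log2 difference of -0.80 beside 0.07 for all rows. Glyat, the glycine N-acyltransferase of the same region of chromosome 19, had 10.2, 21.8 and 10.6 in HSKO against 28.2, 27.6 and 31.6 in WT (log2 difference -1.06 ± 0.32 SE, limma adjusted p = 0.0121). These did not overlap, although HSKO replicate 2 stood well above the other HSKO libraries, and the call was lost without WT replicate 3 (adjusted p = 0.0545). Acsm1, a medium-chain acyl-CoA synthetase that activates acids for glycine coupling, had 19.0, 21.8 and 35.9 in HSKO against 62.6, 49.4 and 59.2 in WT (log2 difference -1.17 ± 0.28 SE, adjusted p = 0.0032).

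The other 2 fitted genes of the list did not pass. Acsm3, another synthetase of that family, had 60.5 ± 5.65 in HSKO and 42.7 ± 6.63 in WT, and Baat, which couples bile acids to taurine or glycine, had 14.9 ± 4.87 in HSKO and 21.4 ± 3.005 in WT (SD, n = 3 each). Neither passed with limma (adjusted p = 0.117 and 0.178), though Acsm3 passed as higher with equal hepatocyte markers (adjusted p = 0.0124) and Baat as lower with upper quartiles or total reads (0.0387 and 0.0125). Gm4952, whose coding stretch is nearest to that of Keg1, was under the minimum mean with 5.85, 1.45 and 3.99 in HSKO against 5.34, 11.8 and 12.4 in WT. Its libraries overlapped, at levels too low for the fit. The separation of the Keg1 libraries follows in part from picking Keg1 for low HSKO values, so the 2 genes cannot be contrasted on this point. Keg1 made up 2.41%, 5.43% and 4.81% of the summed level of the list in HSKO against 11.8%, 12.5% and 10.7% in WT. This too follows in part from that choice, and the HSKO shares of Keg1 rest on 2, 5 and 5 reads.

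Lars2 had by far the highest level of its family in these libraries. None of the other 16 mitochondrial aminoacyl-tRNA synthetases reached the minimum mean, and together they had 53 reads in HSKO and 164 in WT. Lars2 alone made up 46.7%, 54.3% and 56.8% of the family's summed level in HSKO against 63.1%, 62.7% and 73.6% in WT. The shares did not overlap, which follows in part from picking Lars2 for low HSKO values. Per kilobase the highest WT level among the other 16 was 2.24, that of the tyrosine enzyme Yars2, beside 18.7 for Lars2.

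The summed level of those 16 was 23.4, 30.5 and 21.3 in HSKO against 34.3, 38.8 and 33.8 in WT, and 11 of them had a lower mean in HSKO. The next most abundant by level was Iars2, the isoleucine enzyme, with 2.92, 2.91 and 6.65 in HSKO against 13.7, 7.24 and 10.2 in WT, from too few reads to be fitted. These libraries did not overlap. The coding sequence of Lars2 was 61.2% identical to that of Lars, its cytosolic counterpart.

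**Figure D4:**
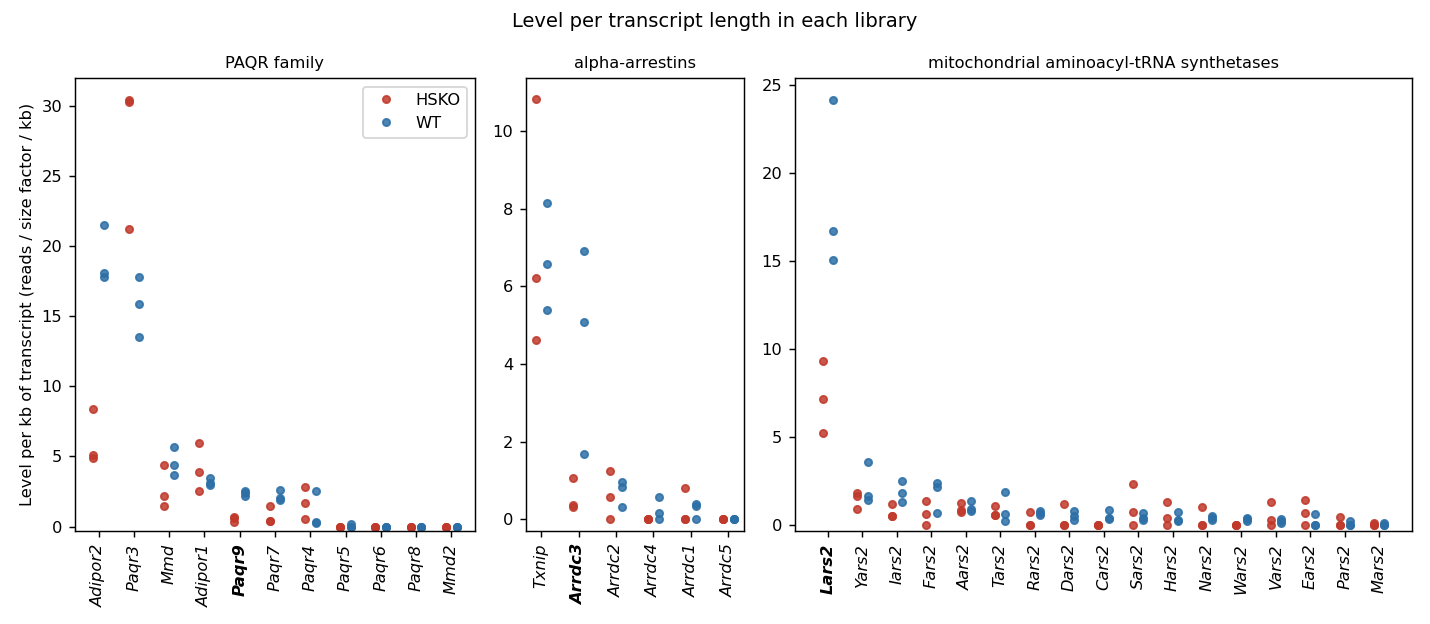
Level per kilobase of transcript (reads divided by size factor and transcript length, linear axes) of every gene of 3 families in each HSKO and WT library. Lars2 stands above its 16 relatives in both genotypes, at a mean of 7.25 in HSKO and 18.7 in WT, while Paqr9 lies below Paqr3 and the adiponectin receptors.

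The cytosolic synthetases and the rest of the mitochondrial translation machinery did not move as one. Of 5 fitted cytosolic synthetases 2 fell and 0 rose, with a median log2 difference of -0.75. Aars, the alanine enzyme, had 21.9, 8.72 and 10.6 in HSKO against 29.8, 23.7 and 32.7 in WT (limma adjusted p = 0.0134), a call lost without HSKO replicate 2 or WT replicate 3 (0.0646 and 0.0663). Nars, the asparagine enzyme, had 7.88 ± 3.84 in HSKO and 16.9 ± 5.28 in WT with overlapping libraries (SD, n = 3 each; log2 difference -1.06, adjusted p = 0.0476), and lost its call in 8 alternatives, among them DESeq2 (0.0706). Without HSKO replicate 1, HSKO replicate 2, WT replicate 2 or WT replicate 3 the adjusted p of Nars was 0.0805, 0.156, 0.137 and 0.231.

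The glutamate and proline enzyme Eprs, with 16.2 ± 7.04 in HSKO and 26.4 ± 1.05 in WT (limma adjusted p = 0.0658), did not pass, nor did the threonine enzyme Tars, with 21.8 ± 5.30 in HSKO and 29.6 ± 6.92 in WT (adjusted p = 0.249). Eprs passed as lower without HSKO replicate 1 (adjusted p = 0.0208). The glutamine enzyme Qars leaned the other way, with 14.1 ± 5.16 in HSKO and 7.54 ± 3.04 in WT (SD, n = 3 each; adjusted p = 0.131).

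Of 2 fitted mitochondrial translation factors 1 rose. Mtif3, an initiation factor, had 73.1, 81.4 and 112 in HSKO against 47.3, 52.6 and 31.0 in WT (log2 difference 1.02 ± 0.27 SE, limma adjusted p = 0.00611), and the fitted elongation factor Gfm2 did not pass (adjusted p = 0.656). Of 7 fitted ribosomal proteins 2 rose and 5 did neither, a share near the 28.5% of all fitted rows that rose, with a median of 0.20. With total reads the median was -0.44, 0 rose and Mrpl15 fell (adjusted p = 0.0303). Mrps25 of the small subunit had 997 ± 30.1 in HSKO and 476 ± 128 in WT (SD, n = 3 each; log2 difference 1.10, adjusted p = 0.00183). Mrpl19 of the large subunit had 36.5, 62.5 and 65.2 in HSKO against 32.8, 23.7 and 25.4 in WT, a log2 difference of 0.95 (adjusted p = 0.0126).

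The Mrps25 libraries did not overlap, and those of Mrpl19 were separated by a narrow gap between HSKO replicate 1 and WT replicate 1. The Mrpl19 call was lost without HSKO replicate 2 or WT replicate 2 (limma adjusted p = 0.0573 and 0.0598). Among the ribosomal proteins that did not pass, Mrpl12 had 22.6 ± 6.62 in HSKO and 19.9 ± 5.31 in WT and Mrps5 had 18.8 ± 1.21 in HSKO and 16.4 ± 3.36 in WT (SD, n = 3 each). Mrps7 had 15.1 ± 1.58 in HSKO and 15.2 ± 4.21 in WT, and Mrpl15 had 9.38 ± 3.13 in HSKO and 13.8 ± 3.77 in WT. Another 69 ribosomal proteins stayed under the minimum mean.

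Of the 10 nearest protein-coding genes on either side of the 5 genes, 9 had a row and 1 was fitted, Ndufb11 beside Rgn, a subunit of respiratory complex I. It had 29.0 ± 5.60 in HSKO and 22.2 ± 8.502 in WT (SD, n = 3 each; limma adjusted p = 0.283). The highest WT mean among the others was 8.78, that of U2surp beside Paqr9, so most neighbours were too scarce to judge. Arrdc3 and Keg1 overlap annotated genes on the other strand, 1700023H06Rik and Gm15962, neither of which has a row here. Keg1 shares 177 bases at 99.4% identity with Gm15962, and since no source used here gives the strand setting of the counting, reads from this stretch cannot be told apart. In whole alignments of 90% identity or more, Lars2 matched 2 other genes over at most 97 bases (AA474408, 94.8%) and Arrdc3 matched 19 over at most 89 bases. Paqr9 matched 8 over at most 62 bases and Rgn matched none. The search did not list the similar stretch of Keg1 and Gm4952 printed above, so it can miss such stretches.

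The rows most like each gene over the 6 libraries were listed by Pearson's r of log2(level + 1) as a measure of likeness. The points share depth and scaling and fall into 2 genotypes, so r carries no test. Arrdc3 was nearest to Hadh (r = 0.987), an enzyme of fatty acid oxidation, then to the cargo receptor Lman1 and the cysteine dioxygenase Cdo1. Paqr9 was nearest to Pecr (r = 0.994), a peroxisomal reductase, then to the sterol demethylase Cyp51 and the amylase Amy1. Keg1 was nearest to Cyp51 (r = 0.994), then to Amy1 and the talin gene Tln1, so it shared 2 of 3 nearest rows with Paqr9.

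Rgn was nearest to the actinin gene Actn4 and the mannose-binding lectin Mbl2 (r = 0.990 each), then to Lypla1, and Lars2 to the clotting factor F9 (r = 0.993), then to Sdf4 and the sterol carrier Scp2. With the group means taken out, the nearest rows were other ones for Arrdc3 (Gpcpd1, Nomo1 and Cyp3a11), Paqr9 (Shfm1, Drap1 and Cox4i1), Keg1 (Rpl22, Foxa1 and Luc7l2) and Lars2 (Sdhb and Sepp1). For Rgn, Mbl2 came first with r = 0.988, followed by Apol9b and Usp2. Mbl2 was thus the 1 row near the same gene by both measures.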

How the data were processed

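Messenger RNA of 6 liver samples was read on an Illumina HiSeq from stranded, paired-end libraries, per the labels' protocols. The deposited signal per gene and library is, per the authors' deposited table and its whole-number steps, a gene's reads over the size factor of its library. Tools listed in the submitters' processing notes are RSEM 1.2.9, DESeq 1.16.0, FastQC 0.11.3 and Bowtie, with build mm10. No source used here gives the read filters, annotation or strand setting. Dividing each value by that of 1 read gave whole reads for 100% of values (tolerance 0.001), so depth was known, and Poisson and ratio intervals (95%) cover counting error only.

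The genes and the lists around them were chosen with earlier results of these data known. HSKO was compared with WT in R 4.3.3 by limma 3.58.1, fitted to log2(value + 1) with a mean-variance trend, over 2750 rows with a mean of at least 10, 2-sided, Benjamini-Hochberg adjusted at 0.05. The fit was also run on simulated reads with as many rises as falls, the same dispersion for every row and known size factors. These data differ from that setting, so the run does not show how far the scaling affects the calls here. DESeq2 1.42.0 (584 genes higher, 325 lower) and edgeR 4.0.16 quasi-likelihood with TMM (684 higher, 601 lower) were run on the recovered reads, among 20 alternatives. Genes were named by a rule that took the 5 genes, Abca1, every called gene of their lists with the 4 most abundant uncalled ones, the 3 nearest rows by correlation (1 is not reported here) and the nearest neighbours. Others (Gm4952, Arrdc5, Iars2, Yars2, Gpd1, Glul and Dcn) were named after their values were seen. Coordinates, transcripts and coding stretches are those of GENCODE M21 on mm10.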

Additional observations from a re-analysis of the deposited data

How the results depend on the processing

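All 20 alternatives were run. The log2 differences of the 5 genes kept their sign in all 97 values under alternatives, between -3.18 and -0.86, and 80 of them moved by less than 1 SD between replicates. The genes were picked for low HSKO values under several scalings, so the kept sign is part of the choice. Some of the 80 could not move at all. A changed filter, no trend, robust estimation or a replicate block leaves the log2 difference of a fitted gene as it was. A pseudocount of 10 gave -1.14 for Arrdc3, -1.02 for Paqr9 and -1.09 for Keg1. The genome-wide count of lower genes (320) depended most on the scaling: it was 42 with equal hepatocyte markers, 503 with quantile normalization, 703 with upper quartiles, 913 with total reads without the top row, 1044 with total reads and 601 with edgeR. It was 211 without a filter and 118 with a minimum mean of 50. Leaving out 1 library gave 157 to 313, with 159 without WT replicate 2 and 157 without WT replicate 3. The count of higher genes (783) was 221 with total reads, 429 with total reads without the top row, 391 with a minimum mean of 50 and 581 to 822 leaving out 1 library.

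Among relatives and partners the 11 falls became 2 with equal hepatocyte markers, 20 with total reads, 19 with total reads without the top row, 2 with a minimum mean of 50 and 6 to 11 leaving out 1 library. The 5 rises became 2 with upper quartiles, 8 with equal hepatocyte markers, 0 with total reads, 1 with total reads without the top row, 3 with quantile normalization, without a filter, with a minimum mean of 50 or with edgeR, and 3 to 6 leaving out 1 library. Pck1 turned to -0.00027 with total reads. A higher minimum mean and a left-out library give fewer genes or samples to test, and for the other moves the cause was not tested. With a minimum mean of 50, Arrdc3, Paqr9 and Keg1 could not be fitted.

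Deviations of same-numbered libraries correlated at -0.03, -0.03 and -0.02. No pairing by replicate number was seen, though 3 libraries per group are too few to exclude one. With the number as a replicate block, 751 genes were higher and 269 lower, and 5 relatives rose and 10 fell. Depth limits Arrdc3, Paqr9 and Keg1 most, with 5, 10 and 12 reads in all HSKO libraries.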
